A study of Mus musculus with 4 samples.

Results

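The genes described here encode tubulins and the proteins that bind, cap, fold or sequester them. They were chosen by gene name in a table of neuropil polyA sites. Its name describes neuropil PAPERCLIP tags that overlap Camk peaks, so tags outside such peaks may be missing. The rule took alpha, beta and gamma tubulins (Tuba, Tubb and Tubg), microtubule-associated proteins (MAPs; Map1a, Map1b, Map1s, Map2, Map4, Map6, Map7, Map9 and their relatives, with Mapt), end-binding proteins (Mapre), Clasp, Camsap, stathmins (Stmn), Dpysl, Tppp and tubulin cofactors (Tbca to Tbce). It found 62 of 9297 sites (0.667%), which carried 38 of 7202 gene names. The rule itself uses names and no measured value, although the gene group was picked with earlier results of these data known.

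The samples were 4 replicate cTag-PAPERCLIP libraries of 1 group, from C57BL/6 mice of the genotype Camk2a-Cre x Pabpc1-cTag. In this cross the poly(A)-binding protein Pabpc1 carries GFP only where the Camk2a promoter drives Cre, which in the hippocampus is the pyramidal neurons. Neuropil, the layer of dendrites, axons and glia beside the CA1 cell bodies, was cut from crosslinked slices, tissue from several mice was pooled per replicate, and RNA bound to the tagged protein was recovered with antibodies to GFP. The mice's age was not given in the labels, and no cell body or untagged library was analysed here, so every value is a level within neuropil and not an enrichment.

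Microtubules are polymers of alpha and beta tubulin dimers that run along dendrites and axons and carry cargo such as mRNA granules. Gamma tubulin nucleates them, MAPs bind along their lattice, end-binding proteins and Clasp act at the growing plus end, Camsap proteins hold the minus end, and stathmins sequester free dimers. Map2 is the classical dendritic MAP and its mRNA is a textbook case of a localized dendritic transcript, whereas Tau, encoded by Mapt, is known as the axonal MAP.

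Each tag marks the 3′ end of an mRNA, and a polyA signal, the hexamer AATAAA or its common variant ATTAAA, directs cleavage a short distance downstream. The 9 sites below were the ones with tags in every replicate, and are shown because they mark the ends that recurred most, some with few tags. Each line gives 30 bases of the mRNA strand, 5′ to 3′, in GRCm38 (mm10) coordinates, with the signal in capitals.
Map2, chr1:66442550-66442579, plus strand: attgttttgcaaAATAAAattgcttgtcac
Tppp, chr13:74035720-74035749, plus strand: ggtaaagtgatgAATAAAggttttaaaata
Dpysl2, chr14:66802871-66802900, minus strand: cacggaacacccAATAAAgcaaaatgtggt
Mapre3, chr5:30866030-30866059, plus strand: cagttttatttaAATAAAtttgtgtggcaa
Tubb2a, chr13:34074283-34074312, minus strand: gaaatctatatgAATAAAaaagcatgtgta
Tubb5 proximal site, chr17:35834808-35834837, minus strand: tggcaggcactcAATAAAtatttgtttgtg
Tubb3, chr8:123421972-123422001, plus strand: aggggtatacttAATAAAgttactgctgtc
Map1a, chr2:121309405-121309434, plus strand: tccacctctaacAATAAAccaagttcattg
Map6, chr7:99337102-99337131, plus strand: ttgctggaatctAATAAAattggttcctct

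All 9 held the canonical AATAAA and all lay in the 3′UTR of the gene they were named for. In the Mapre3 sequence the letters TTTTAT, a form of the cytoplasmic polyadenylation element described further below, stand just before the signal.

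All shares here are of tags at the listed sites and not of whole libraries. Such tags were few, with 16017, 6609, 5947 and 6099 in replicates 1 to 4. Tags at 112 sites whose surroundings resembled Bc1, an abundant dendritic noncoding RNA, made up 32.9%, 11.8%, 2.59% and 2.07% of them. Pyramidal neuron markers were at 0.182 to 0.328% of tags (8 of 10 genes with tags, led by Nrgn with 53 and Camk2b with 23; none counted under the names Camk2a and Slc17a7). Astrocyte markers were at 0.115 to 0.337% (8 of 8 genes), oligodendrocyte markers at 0.131 to 0.560% (7 of 7 genes), interneuron markers at 0.0303 to 0.246% (4 of 7 genes, with none for Gad2, Vip and Slc32a1) and microglial markers at 0 to 0.0187% (2 of 6 genes, with none for Csf1r, Cx3cr1, P2ry12 and C1qb). Blood and vessel markers were at 0.0250 to 0.975% and 96 of their 98 tags were from Hbb-b1, a beta globin. Fewer cells of a type and less RNA per cell cannot be told apart in such pooled tissue.

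Tubulin and MAP genes took 97, 46, 69 and 83 tags in replicates 1 to 4, 295 in all. Their share of the tags was 0.606% in replicate 1 (95% Wilson interval 0.497 to 0.738), 0.696% in replicate 2 (0.522 to 0.927), 1.16% in replicate 3 (0.918 to 1.47) and 1.36% in replicate 4 (1.10 to 1.68), with a mean of 0.956% ± 0.363 (SD, n = 4). Replicates 1 and 2 were low and replicates 3 and 4 high, and the interval of replicate 1 did not reach those of replicates 3 and 4. Without the Bc1-like tags in the denominator the shares were 0.902%, 0.789%, 1.19% and 1.39%, so that the order of replicates 1 and 2 turned and the spread narrowed (mean 1.07% ± 0.273, SD, n = 4). The interval of replicate 1 (0.740 to 1.10) then overlapped that of replicate 3 (lower bound 0.942) and still not that of replicate 4 (lower bound 1.12). Oligodendrocyte markers were at 0.287%, 0.560%, 0.185% and 0.131% of tags in replicates 1 to 4, higher in the first pair, and astrocyte markers at 0.337%, 0.151%, 0.118% and 0.115%. Interneuron markers were at 0.0499%, 0.0303%, 0.135% and 0.246%, higher in replicates 3 and 4. Of their 33 tags, 22 were from Npy alone (4, 0, 6 and 12 in replicates 1 to 4), whereas Gad1 had 3, 1, 2 and 2. Pyramidal neuron markers were at 0.318%, 0.182%, 0.269% and 0.328%. The part of these cell types in the difference was not tested. The intervals and limits reflect counting error alone, and they are too narrow if PCR copies of a molecule were counted more than once.

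The tags were spread unevenly over the 38 genes. Map2 alone held 21.7% of them and the top 3 genes 37.3%. There were 8 genes with 10 or more tags, 15 with 4 to 9, 6 with 2 or 3, and 9 with 1. The median was 4 tags per gene, beside 2 tags over all gene names in the table. Because each mRNA has 1 end to be captured, these shares are not inflated by gene length, but how well Pabpc1 crosslinks to each tail was not measured.

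**Figure D1:**
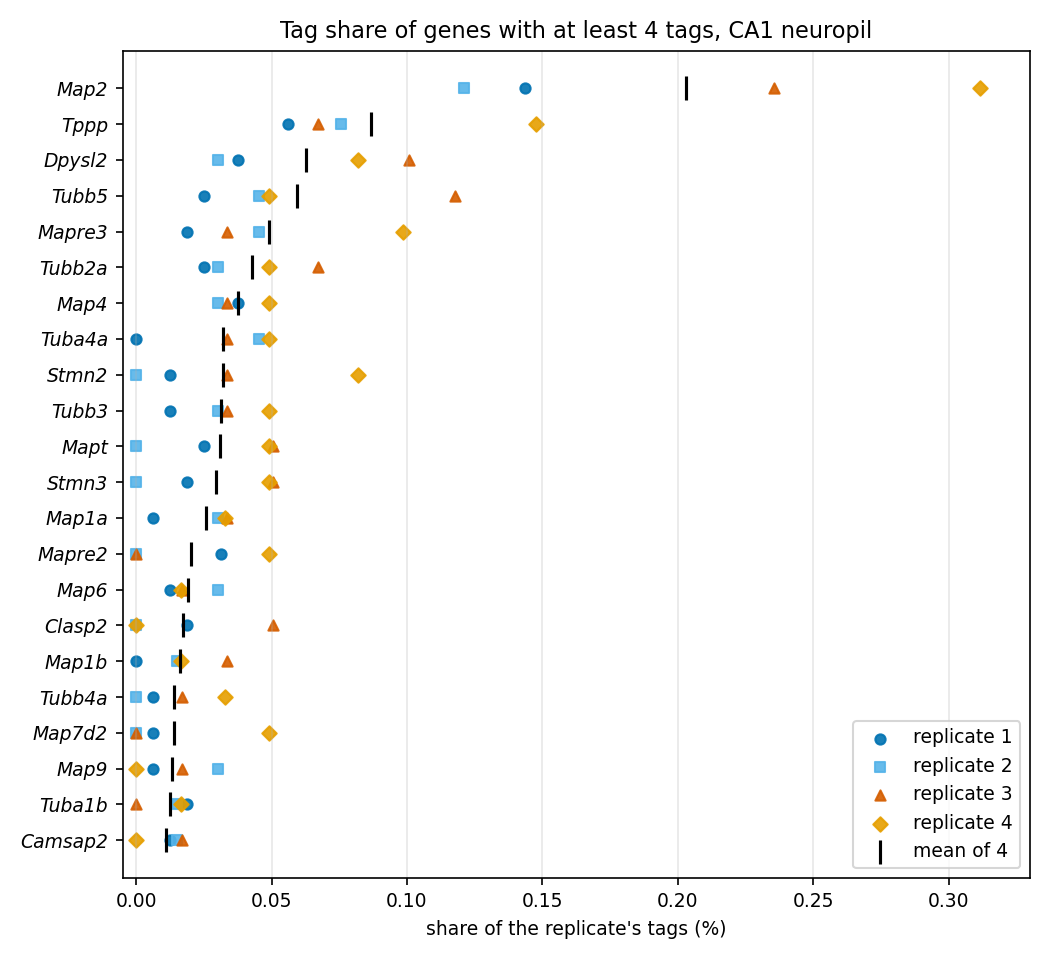
Share of the replicate's tags (%, x axis) for 22 of the genes with at least 4 tags (y axis), with 1 point per replicate and a bar at the mean of 4. Map2 has the highest mean at 0.203%, but its replicates overlap those of Tppp, and from Tppp down the replicates of neighbouring genes overlap too.

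Structural MAPs held the most tags of any role, 119 (40.3% of the tubulin and MAP tags), from 11 genes and 20 sites. Their share was 0.256%, 0.272%, 0.471% and 0.525% in replicates 1 to 4, with a mean of 0.381% ± 0.137 (SD, n = 4). Of the 11 genes, 10 had tags in more than 1 replicate (47.4% of all gene names did) and 4 (Map2, Map4, Map1a and Map6) in every replicate (7.76% of all gene names).

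Map2, the dendritic MAP, had 23, 8, 14 and 19 tags, or 0.144%, 0.121%, 0.235% and 0.312% of the replicate's tags, with a mean of 0.203% ± 0.0877 (SD, n = 4). It ranked 36 among the 7202 gene names by mean share and held 53.8% of the structural MAP tags. Its lowest share, in replicate 2, was above the highest share of every other tubulin or MAP gene except Tppp (0.148% in replicate 4). All 64 tags fell at 1 site in the 3′UTR, at chromosome 1 position 66442559, 3555 bases past the stop codon and 24 bases before the end of the gene. No proximal Map2 end was among the listed sites in any replicate, and an end outside the Camk peaks may not be listed.

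Mapt, the gene of the axonal MAP Tau, had 4, 0, 3 and 3 tags, a mean share of 0.0312% ± 0.0238 (SD, n = 4). The count of 0 in replicate 2 allows a share of up to 0.0454%, which lies within the range of the other replicates (0.0250 to 0.0504%). Of the 10 tags, 7 lay at the most distal of 4 sites, at chromosome 11 position 104332064, 3880 bases past the stop codon. The other 3 sites had 1 tag each and lay 38, 254 and 1882 bases past it.

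Map2 exceeded Mapt in every replicate. The log2 ratio of Map2 to Mapt tags, with 1 added to each count, was 2.26, 3.17, 1.91 and 2.32, with a mean of 2.42 ± 0.54 (SD, n = 4; above 0 in 4 of 4 replicates). An exact two-sided sign-flip permutation test gave a Benjamini-Hochberg adjusted p = 0.188 over 3 ratios, and its unadjusted p was the smallest that 4 replicates can give, which is above 0.05.

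Map1a, whose protein binds dendritic microtubules of mature neurons, had 1, 2, 2 and 2 tags (mean 0.0257% ± 0.0131, SD, n = 4). Map1b, its relative known from growing neurites, had 0, 1, 2 and 1 tags. Map6, which protects microtubules from cold and drugs, had 2, 2, 1 and 1 tags (mean 0.0190% ± 0.00776, SD, n = 4). These genes were seen repeatedly but at counts too low to be ordered against each other.

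Map4, a MAP found in many cell types, had 6, 2, 2 and 3 tags and the narrowest relative spread of the genes with over 10 tags (mean 0.0376% ± 0.00824, SD, n = 4). The remaining structural MAPs had 2 to 4 tags each. Map7d2 and Map7d1, of a family that recruits kinesin, had 4 and 3 tags, Map9 had 4, Map1s had 2, and Map6d1, a relative of Map6, had 2 tags, both in replicate 3.

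Beta tubulins had 44 tags from 5 genes, and 3 of these genes (Tubb5, Tubb2a and Tubb3) were seen in every replicate, as were 7.76% of all gene names. The class share was 0.0687%, 0.106%, 0.252% and 0.180% in replicates 1 to 4 (mean 0.152% ± 0.0815, SD, n = 4). Its highest value, in replicate 3, was just below the lowest value of the structural MAPs.

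Tubb5, a broadly expressed beta tubulin, had 4, 3, 7 and 3 tags (mean 0.0593% ± 0.0404, SD, n = 4). Tubb2a, a main beta tubulin of brain, had 4, 2, 4 and 3 tags (mean 0.0429% ± 0.0193, SD, n = 4), all at 1 site 169 bases past the stop codon. Tubb3, the neuron-specific beta tubulin, had 2, 2, 2 and 3 tags (mean 0.0314% ± 0.0151, SD, n = 4), all at 1 site 307 bases past the stop codon. The ranges of all 3 overlapped. Tubb4a had 4 tags and Tubb4b had 1.

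Alpha tubulins had 14 tags from 3 gene names (3, 5, 2 and 4 in replicates 1 to 4; mean 0.0484% ± 0.0267, SD, n = 4). Tuba4a had 0, 3, 2 and 3 tags (mean 0.0321% ± 0.0224, SD, n = 4), and its 0 in replicate 1 allows a share of up to 0.0187%, which lies below its shares in the other replicates. Tuba1c had 1 tag. The site named Tuba1b had 3, 1, 0 and 1 tags, but its position, 98949858 on the minus strand of chromosome 15, lay in the 3′UTR of Tuba1a in GENCODE vM21, 18.4 kb from the end of Tuba1b. The 50 bases around it occurred at 1 place in the genome, and its 5 tags are therefore given here under the table's name but at the Tuba1a 3′ end.

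Beta tubulin mRNA tags outnumbered alpha tubulin mRNA tags in all 4 replicates, and tubulin protein was not measured. The log2 ratio, with 1 added to each count, was 1.58, 0.42, 2.42 and 1.26 (mean 1.42 ± 0.83, SD, n = 4; above 0 in 4 of 4). The exact two-sided sign-flip permutation test gave adjusted p = 0.188 over 3 ratios, with the unadjusted p again at the smallest value that 4 replicates allow. Gamma tubulins, the nucleators, had 1 tag each from Tubg1 and Tubg2.

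**Figure D2:**
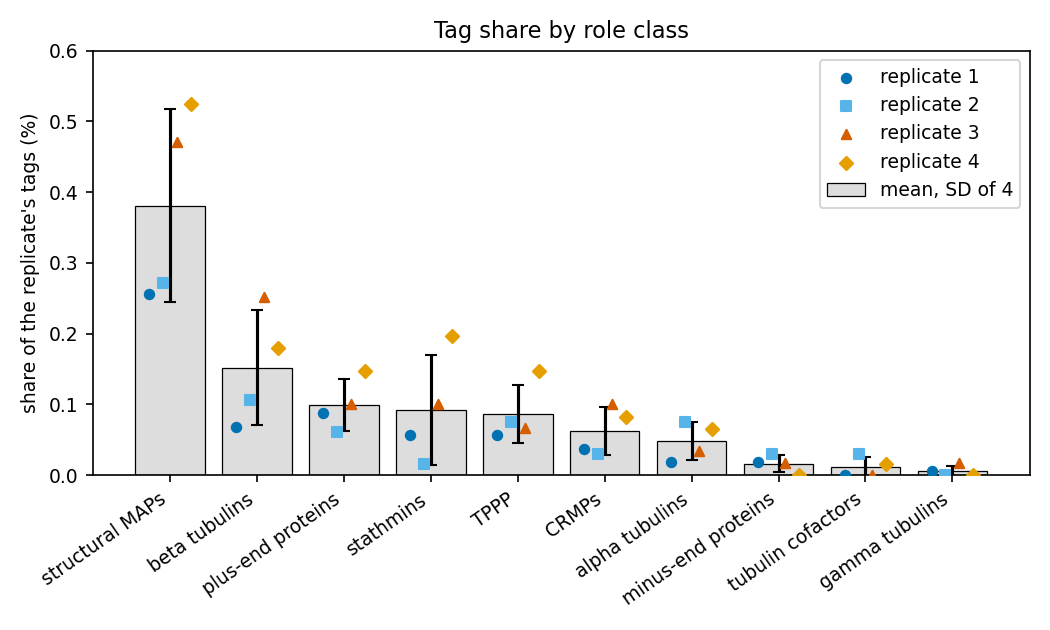
Share of the replicate's tags (%, y axis) by role (x axis), with 1 point per replicate, bars at the mean and error bars of 1 SD over 4 replicates. Structural MAPs had a mean of 0.381%, beta tubulins 0.152%, alpha tubulins 0.0484% and gamma tubulins 0.00576%.

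Plus-end proteins had 14, 4, 6 and 9 tags from 5 genes (mean 0.0991% ± 0.0364, SD, n = 4). Mapre3, which encodes the end-binding protein EB3 that is most prominent in neurons, had 3, 3, 2 and 6 tags (mean 0.0490% ± 0.0347, SD, n = 4), all at 1 site 860 bases past the stop codon. Its share was highest in replicate 4 at 0.0984% and lowest in replicate 1 at 0.0187%, and without replicate 4 its mean was 0.0326%. Mapre2 had 5, 0, 0 and 3 tags (mean 0.0201% ± 0.0243, SD, n = 4, and 0.0104% without replicate 4) and Mapre1, which encodes EB1, had 1, 1, 0 and 0. Clasp2 and Clasp1, which rescue shrinking plus ends, had 6 and 3 tags, all in replicates 1 and 3.

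Minus-end proteins were sparse. Camsap2 had 2, 1, 1 and 0 tags at 4 different sites with 1 tag each, and Camsap1 and Camsap3 had 1 tag each, so that none of the 6 Camsap sites recurred between replicates.

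Stathmins had 9, 1, 6 and 12 tags under 5 gene names (mean 0.0922% ± 0.0780, SD, n = 4, and 0.0574% without replicate 4), the widest spread relative to the mean of the roles with over 10 tags. Stmn2, a membrane-bound stathmin of neurons, had 2, 0, 2 and 5 tags (mean 0.0320% ± 0.0361, SD, n = 4; 0.0154% without replicate 4). Stmn3 had 3, 0, 3 and 3 tags (mean 0.0296% ± 0.0246, SD, n = 4). Both were at 0 in replicate 2, which allows a share of up to 0.0454%. Stmn1 and Stmn4 had 1 tag each.

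Dpysl2 encodes CRMP2, which binds tubulin dimers and promotes their assembly. It had 6, 2, 6 and 5 tags (0.0375%, 0.0303%, 0.101% and 0.0820% of the replicate's tags; mean 0.0626% ± 0.0343, SD, n = 4). Replicates 3 and 4 were above replicates 1 and 2. Of the 19 tags, 84.2% lay at the distal site, 2462 bases past the stop codon, and the 3 others, all in replicate 3, at a site 1333 bases past it that held no polyA signal.

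Tppp encodes a protein that promotes tubulin polymerization and is best known from oligodendrocytes. It had the most tags after Map2, with 9, 5, 4 and 9 (0.0562%, 0.0757%, 0.0673% and 0.148%; mean 0.0867% ± 0.0414, SD, n = 4), and ranked 127 of 7202 names. Replicate 4 stood above the other 3, whose shares lay close together. As shares, the 7 oligodendrocyte markers summed to 0.287%, 0.560%, 0.185% and 0.131% of the tags in the same replicates, lowest in replicate 4, where the Tppp share was highest. In tags they had 46, 37, 11 and 8, and Tppp had as many tags in replicate 1 as in replicate 4. The GFP tag that was pulled down is made in Camk2a-Cre cells, and the part of oligodendrocyte RNA in the Tppp level was not tested. Of the Tppp tags, 25 lay at 1 site 4317 bases past the stop codon, with 1 tag in an intron and 1 tag 400 bases past the gene.

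The folding cofactors Tbcb and Tbca, which help assemble the tubulin dimer, had 2 tags in replicate 2 and 1 tag in replicate 4.

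Most of these ends were standard 3′UTR ends. Of the 62 sites, 54 (87.1%; 76.5% of all sites) lay in a 3′UTR and held 96.6% of the tags, 4 lay between genes (6.45%; 15.3% of all sites), 3 in introns and 1 in a noncoding exon. The gene each site was named for, as drawn in GENCODE vM21, contained 55 of the sites (88.7%; 76.5% of all annotated sites), and the 7 others held 15 tags. Within 100 bases of an annotated transcript end of the named gene lay 44 sites with 251 tags, which is 89.6% of the tags inside the named genes, and 39 of these sites were at the end or upstream of it. Their median distance upstream was 21 bases. The length of 3′UTR from stop codon to site ranged from 38 to 6361 bases with a median of 860 (51 sites), beside a median of 996.5 over 6504 sites in the table.

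Of the 38 genes, 24 had 1 site and 14 (36.8%; 21.7% of all gene names) had more than 1. Only Map4, Tuba4a and Tubb5 had more than 1 site that was seen in more than 1 replicate. Their pairs of listed sites are shown for the signal near each, 5′ to 3′ on the mRNA strand with the signal in capitals (GRCm38). The 30 bases need not reach the end of the 3′UTR. The end named Tuba1b that lies in Tuba1a is given with them. The Tubb5 proximal site is given above.
Tubb5 distal site, chr17:35833924-35833953, minus strand: cccagagccaaaAATAAAtgggaattggaa
Tuba4a proximal site, chr1:75215556-75215585, minus strand: aaatcctttcgaAATAAAcagtctccttgc
Tuba4a distal site, chr1:75214979-75215008, minus strand: tggagccatgctATTAAAagtcaggtcgtc
Map4 proximal site, chr9:110005355-110005384, plus strand: atgaattaaactAATAAAcattgtatatta
Map4 distal site, chr9:110083914-110083943, plus strand: actgatttaaacAATAAAgctgcctgacat
Tuba1a end named Tuba1b, chr15:98949843-98949872, minus strand: ttatgggttttaAATAAAatactccctgtc

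For Tubb5 the proximal site, 152 bases past the stop codon, had 4, 1, 3 and 3 tags, and the distal site, 1035 bases past it, had 0, 2, 4 and 0. The proximal end was seen in every replicate and the distal end in replicates 2 and 3. For Tuba4a the proximal site, 53 bases past the stop codon, had 0, 2, 2 and 2 tags, and the distal site, 629 bases past it and the only one of the pairs with ATTAAA, had 0, 1, 0 and 1. The Map4 proximal site had 4, 0, 0 and 3 tags and the distal site had 0, 2, 1 and 0, so these 2 Map4 sites were never seen in the same replicate. The Map4 proximal end belongs to a shorter transcript whose 3′UTR lies 78.6 kb before the end of the gene, and the other 3 Map4 sites had 1 tag each. At 1 of them, in the last 3′UTR of the gene 1419 bases past the stop codon, the tag was in replicate 1, together with tags at the proximal end.

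Summed over the 3 genes, the proximal ends had 8, 3, 5 and 8 tags and the distal ends 0, 5, 5 and 1. The log2 ratio of distal to proximal, with 1 added to each count, was -3.17, 0.58, 0 and -2.17 (mean -1.19 ± 1.77, SD, n = 4), and an exact two-sided sign-flip permutation test gave p = 0.5 (adjusted p = 0.5 over 3 ratios). The replicates disagreed in direction. Taking the most distal and the most proximal listed site of 13 of the 14 genes with several sites, and leaving out sites between them, gave 58 distal and 44 proximal tags and the mean turned to 0.48. The genes added there included Dpysl2 (16 distal and 3 proximal tags), Stmn2 (8 and 1), Mapt (7 and 1) and Clasp2 (5 and 1), whereas the main Tppp site, with 25 tags, lay between its outer sites and was not counted. Stmn3 went the other way, with 1 distal tag at a site between genes and 8 proximal tags.

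**Figure D3:**
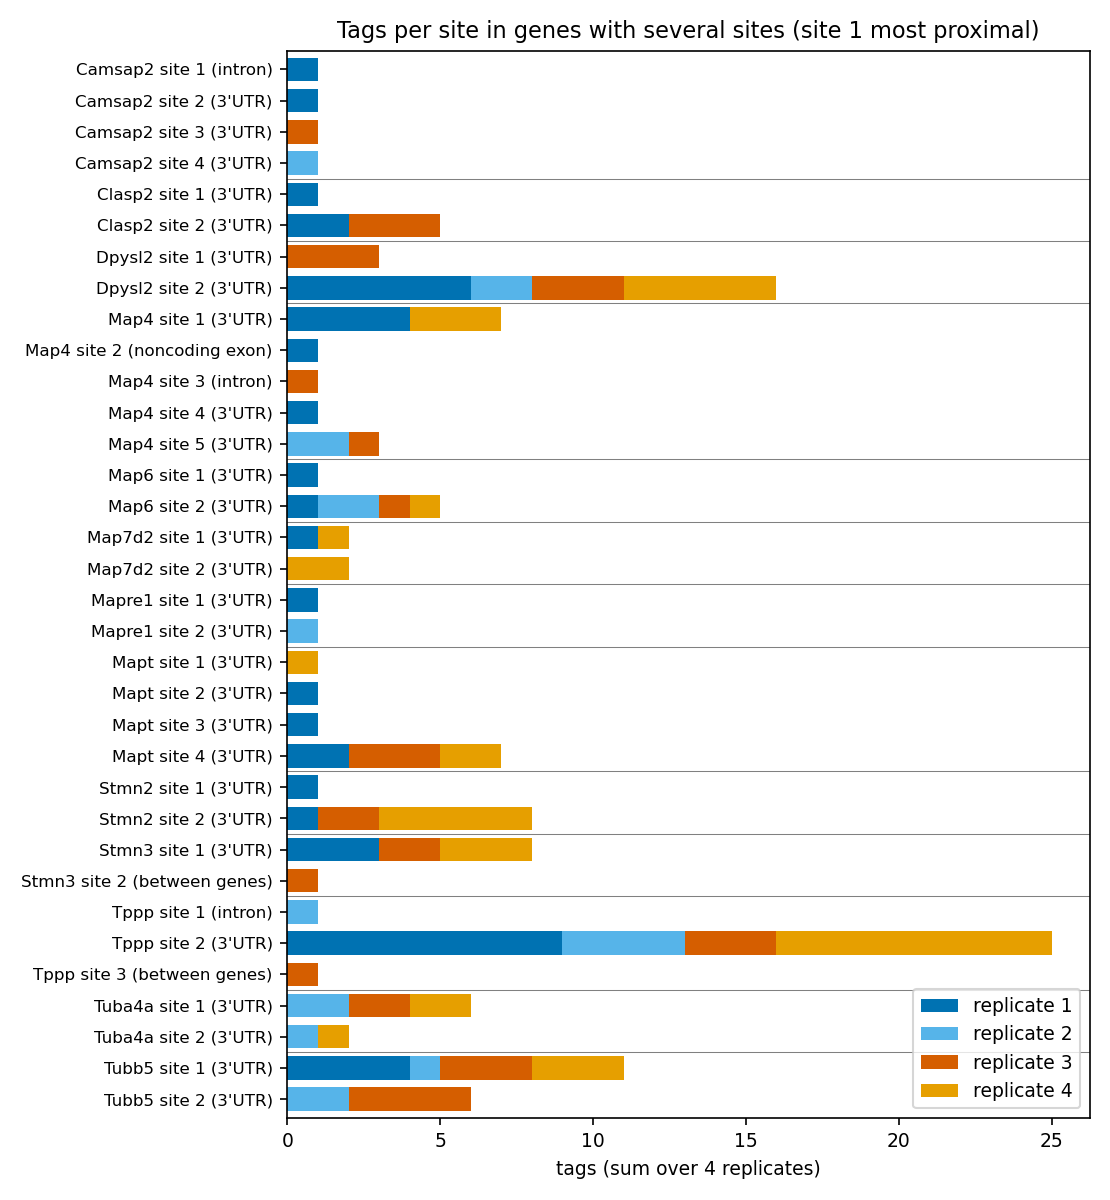
Tags at each site, summed over 4 replicates (x axis), for 13 of the genes with several sites (y axis; site 1 is the most proximal), with colours for the replicates. Tags of Dpysl2, Tppp, Mapt and Stmn2 were concentrated at 1 site, whereas those of Tubb5 (11 and 6), Tuba4a (6 and 2) and Map4 (7 and 3 at its main sites) were divided.

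Tubulin and MAP ends recurred between replicates. Tags in more than 1 replicate were seen at 28 of 62 sites (45.2%), beside 34.2% of all sites, and tags in every replicate at 9 (14.5%), beside 4.9%. By gene, 27 of 38 names (71.1%) were seen in more than 1 replicate, beside 47.4% of all names, and 11 (28.9%) in every replicate, beside 7.76%. Sites seen in more than 1 replicate held 253 tags (85.8%; 77.8% over the table), and 28 sites had a single tag (45.2%; 57.2% over the table).

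A site with more tags has more chances to recur, and the comparison was therefore repeated at like numbers of tags. With 5 to 9 tags, 12 of 12 tubulin and MAP sites recurred (97.2% of all such sites), and with 10 or more, 6 of 6 did (96.9%). With 3 or 4 tags it was 6 of 8 (75%; 87.1%) and with 2 tags 4 of 8 (50%; 61.4%). In each of these bins a change of 1 tubulin or MAP site would move its share to the other side of the share of all sites. Seen in every replicate were 6 of 6 sites with 10 or more tags (59.0% of the 481 such sites in the table), 3 of 12 with 5 to 9 (20.7%) and 0 of 8 with 3 or 4 (1.81%).

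**Figure D4:**
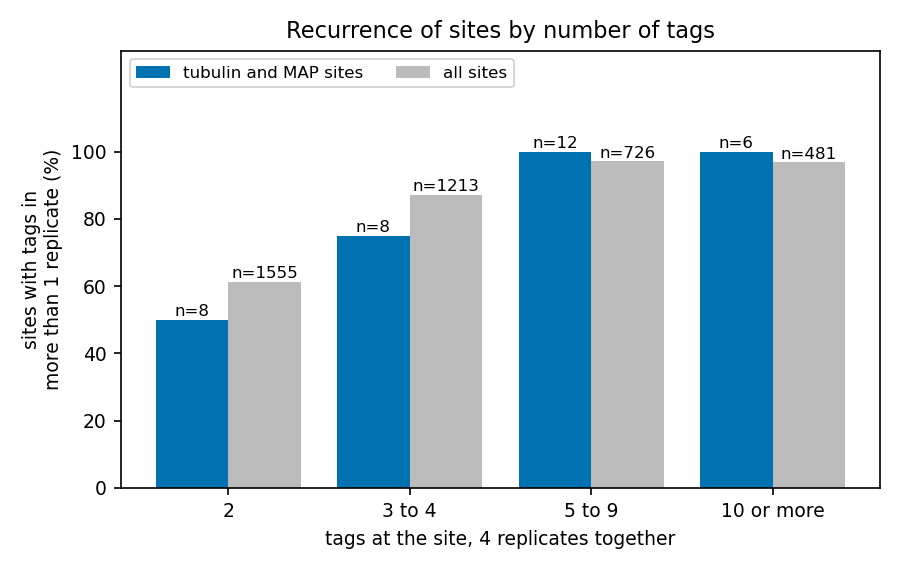
Percentage of sites seen in more than 1 replicate (y axis) by the number of tags at the site in the 4 replicates together (x axis), for tubulin and MAP sites and for all sites, with the number of sites above each bar. The bars rise from 50% and 61.4% at 2 tags to 100% and 96.9% at 10 or more.

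A polyA signal, AATAAA or ATTAAA on the strand of the site within 50 bases on either side, was found at 53 of 62 sites (85.5%), beside 78.1% of all sites. The nearest was AATAAA at 44 and ATTAAA at 9. All 28 sites seen in more than 1 replicate held a signal (84.3% of all such sites in the table), beside 25 of 34 (73.5%) of those seen in 1. The signal began at a median of 2 bases before the listed position (signed offset -2, range -21 to 13), and 49 began within 15 bases upstream to 10 downstream of it (92.5%; 90.8% of the 7258 sites with a signal in the table). Listed positions thus lay close to the start of the signal, and searching only 50 bases upstream gave a signal at 25.8% of the sites (27.7% of all sites).

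**Figure D5:**
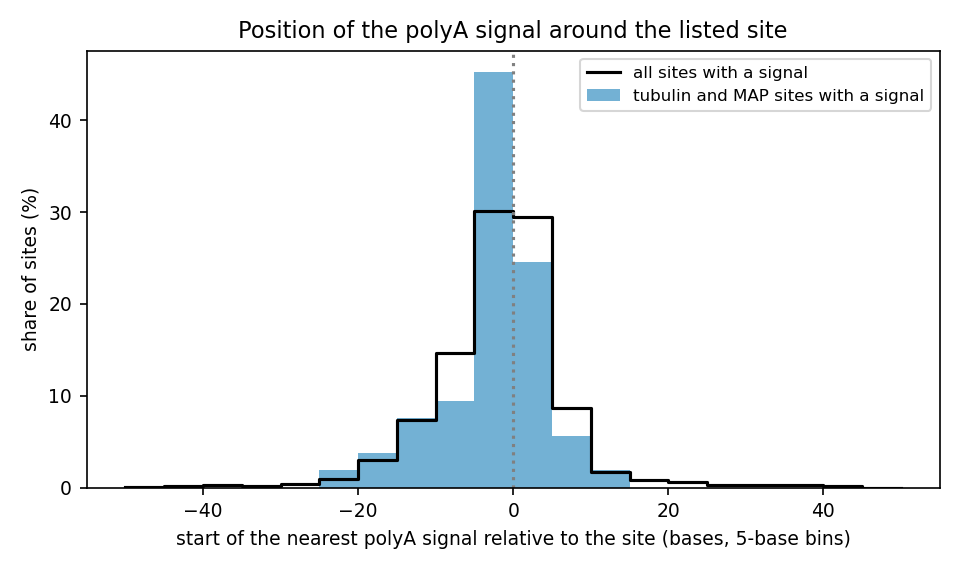
Share of the sites with a signal (%, y axis) by the start of the nearest polyA signal relative to the listed position (x axis, bases, in bins of 5), for the 53 tubulin and MAP sites (filled) and all 7258 sites (line). Both peak at the listed position, with a median offset of -2.

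The cytoplasmic polyadenylation element (CPE), a U-rich motif near the signal of some dendritic mRNAs, was searched as TTTTAT or TTTTAAT on the strand of the site within 100 bases upstream of the listed position. Overlaps with the polyA signal were allowed. It was found at 12 of 62 sites (19.4%), beside 19.4% of all sites, in 9 genes with 71 tags at these sites. Among sites seen in more than 1 replicate, 7 (25%) held it, beside 20.6% in the table. The holders with most tags were Tppp (25 tags), Mapre3 (14), Tubb3 (9), the proximal Map4 site (7) and Map1b (4), and the distal Map4 site also held it. The Map2 site had no match in its window. A match is a description of these letters and not of a bound factor.

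Other microtubule genes, from lists of tubulin modifiers, severing enzymes, gamma ring proteins, tip and cross-linker proteins, doublecortins, kinases of MAPs and the Lis1 group, had tags for 29 of 46 names, 128 in all (41, 18, 29 and 40 in replicates 1 to 4; mean 0.418% ± 0.191, SD, n = 4). Of the 29, 16 (55.2%; 47.4% of all names) were seen in more than 1 replicate and 4 in every replicate (7.76% of all names were). Kinases of MAPs led with 54 tags from 7 of 7 genes. Cdk5r1, the p35 activator of Cdk5, had 10, 2, 5 and 13 tags (mean 0.0975% ± 0.0802, SD, n = 4, and 0.0589% without replicate 4), and Gsk3b, which phosphorylates Tau, had 3, 2, 4 and 3.

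Doublecortins had 23 tags, 20 of them from Dclk1, a doublecortin-like kinase that binds microtubules (7, 1, 5 and 7). Cdk5rap2, a centrosomal activator of the gamma tubulin ring, had 2, 3, 3 and 1 tags, 9 of the 11 tags of the gamma ring list (2 of 9 genes). Tubulin modifiers had 14 tags from 7 of 12 genes, severing enzymes 9 from 4 of 6, the Lis1 group 9 from 3 of 3, and tip and cross-linker proteins 8 from 3 of 6. Cdk5r1 had a mean share between those of Tppp and Map2, and its range overlapped both. Without replicate 4 its mean (0.0589%) was below that of Tppp (0.0664%).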

How the data were processed

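The deposited table holds tag counts, whole numbers with no normalization, at 1-base polyA sites in 4 libraries. By its name these are tags overlapping Camk peaks, and not all tags of the libraries. Per the study's methods the authors clustered tags with the CTK package. The submitters' processing notes name cutadapt, Novoalign and mm10. How tags with several matches or duplicates were treated is not given in the sources used here, which can change counts at repeats. All site positions fitted within the GRCm38 chromosomes.

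Sites were annotated with GENCODE M21. Each share is a percentage of 1 replicate's tags at the listed sites, with a 95% Wilson interval, and a count of 0 was given a limit of 3 tags. Bc1-like sites held at least 10 words of 12 bases from the first 74 bases of Bc1 within 75 bases. Ratios (pseudocount 1) were tested by exact sign-flip permutation, with Benjamini-Hochberg adjustment. Percentages over all sites or names are descriptions. Per the study's methods each replicate pooled several mice, so SDs are between pools and do not give the spread between animals. Alternatives left out each replicate and changed the denominator, gene naming, site class, tag minimum, pseudocount and windows.

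Genes named with full values had tags in every replicate, several recurrent sites, or the most tags in their role; others were named to complete a role after their values were seen. Results of 1 member by name are not reported here, and its tags stay in the totals. The members and lists were chosen with earlier results of these data known. Code was tested on simulated data. Python 3.11.15, numpy 2.4.6, pandas 2.3.3, scipy 1.17.1 and matplotlib 3.10.9 were used.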

Additional observations from a re-analysis of the deposited data

Results flagged for a closer look

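In 2 of 30 values tested over the 4 replicates, a gap rule set 1 replicate apart from the other 3, and chance gives about 1.5 (1 in 20). The rule assumes continuous values, which counts of a few tags are not. The gap to the nearest replicate, as a share of the whole range, was 0.877 for the tag share of Map1a, where replicate 1 was low. Map1a had only 1, 2, 2 and 2 tags. The 95% Wilson interval of its replicate 1 share (0.00110 to 0.0354%) held the shares of the other 3 replicates. The gap was 0.934 for the total tags at the listed sites, where replicate 1 was high with 16017. Both exceeded Dixon's 95% critical value for 4 samples. Genes with 3 or fewer tags were not tested.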

How the results depend on the processing

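Of 127 values of the comparisons under an alternative, 121 kept their direction and moved by less than the spread between replicates (1 SD) or, for counts, by less than 1.5 times or, for percentages of sites, within the 95% Wilson interval, and 174 of 176 values of single genes moved by less than 1 SD. For genes with few tags 1 SD can exceed the mean, so such values include falls to 0. Requiring at least 2 tags in each of more than 1 replicate left 16 of the 28 recurrent sites. Keeping only sites in more than 1 replicate brought the shares of minus-end proteins, gamma tubulins and tubulin cofactors to 0 and the share of sites with a polyA signal to 100%. Searching 50 bases upstream gave a polyA signal at 25.8% and a CPE at 11.3% of sites (27.7% and 12.8% of all sites). The mean log2 ratio of distal to proximal tags turned from -1.19 to 0.48 with the outermost listed sites of each gene. With GENCODE gene names, Tuba1b had no tags and the stathmin share was 0.0631%. Leaving out 1 replicate gave a mean share of 0.821 to 1.07% for all tubulin and MAP genes, 21 to 24 recurrent sites, and 12 to 15 genes in every remaining replicate. The share without replicate 4 was 0.0574% for stathmins, 0.0154% for Stmn2, 0.0104% for Mapre2 and 0.0326% for Mapre3. The cofactor share was 0.00547% without replicate 2, and the gamma tubulin share 0.00208% without replicate 3. The ratio of Map2 to Mapt stayed between 2.16 and 2.58, that of beta to alpha between 1.09 and 1.75, and that of distal to proximal between -1.78 (without replicate 2) and -0.53 (without replicate 1). Depth limits most genes: with 1 to 9 tags, neither order nor the choice of end can be resolved.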

Other observations

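A site named Rpl32l, at chromosome 10 position 20281500 with 2, 0, 0 and 0 tags, lay in the 3′UTR of Map7 in GENCODE vM21. It was not counted among the tubulin and MAP genes, because the choice was by the name in the table. Map7 encodes the founding member of the family of Map7d1 and Map7d2.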
